A study of Mus musculus with 4 samples.

Results

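The matrix metalloproteases (Mmp), the ADAM and ADAMTS proteases and the tissue inhibitors of metalloproteases (Timp) were followed across 4 arrays of mouse mammary gland RNA. Members were all probe sets whose platform gene symbol was Mmp, Adam, Adamts or Timp followed directly by a digit, and 1 probe set that also named a second gene was left out. This gave 83 probe sets of 54 genes, out of 12393 named genes on the array: 18 Mmp, 25 Adam, 7 Adamts and 4 Timp genes. Of these, 22 were measured, meaning that the gene's probe set reached an intensity of 139 (the median of all values) on at least 1 array: 7 Mmp, 7 Adam, 4 Adamts and all 4 Timp genes.

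The 4 groups were wild-type mice on standard chow, MMTV-PPARd mice on standard chow, wild-type mice on chow with GW501516 and MMTV-PPARd mice on chow with GW501516. GW501516, a synthetic ligand that activates the nuclear receptor PPARδ, was given for 1 week, at 0.005% of the chow by the protocol and the source names and at 0.001% by a treatment tag. All mice were nulliparous females, wild-type littermates were age-matched on the FVB background, and the labels gave no ages. The transgene is driven by the mouse mammary tumour virus promoter, which is active in mammary epithelium and in some other tissues, while the RNA came from whole gland. Each array held RNA pooled from 5 mice, so each group was 1 array and no difference has a replicate check or a test.

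Matrix metalloproteases are zinc enzymes that cut collagens, laminins, elastin and other proteins of the extracellular matrix, and the TIMPs block their active site. ADAMs are membrane-anchored relatives, several of which release growth factors and receptors from the cell surface, and ADAMTS enzymes are secreted forms that cut proteoglycans and procollagens. In the mammary gland these enzymes act in duct growth and branching, in the loss of alveoli after weaning and in tumour invasion, and many are made by stromal cells around the epithelium.

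Ppard read 2.1 and 1.5 on the wild-type arrays and 1943 and 4224 on the MMTV-PPARd arrays on chow and GW501516. Of the luminal epithelial markers, the keratin gene Krt8 read 5613 to 8266 on all arrays, whereas 7 of 11 measured markers were at least 2-fold higher with the transgene on chow, against 5.46% of measured genes. On chow Elf5, a transcription factor of luminal cells, read 882.3 in wild type and 4920 in MMTV-PPARd mice. A pair of arrays stood apart. On the MMTV-PPARd chow array a Gapdh control probe set read 2986 against 7171 to 10826, and another 4001 against 6753 to 9805. A probe set of the spiked control BioB read 32.4 against 438.1 to 519.0. Other spiked controls differed less, with a BioC probe set at 746.3 against 1025 to 1246 and a CreX probe set at 7135 against 9717 to 11058. The comparison of genotypes on chow and that of diets in MMTV-PPARd mice use this MMTV-PPARd chow array. On the wild-type GW501516 array 3 of 7 salivary gland markers were high that lay below the floor of 20.5 on the others, with Bpifa2 at 3719 against 1.3 to 9.4, Cst10 at 557.0 against 1.4 to 1.7 and Smr3a at 441.7 against 0.3 to 3.4, while Prol1 was highest in wild type on chow at 147.2. The same array read 2.2 for the milk protein gene Glycam1 against 4207 to 9535. The comparison of diets in wild type and that of genotypes on GW501516 use this array, and the part of such tissue differences in the members' values was not tested. The summed intensity of 19 skeletal muscle markers was 19599 and 44310 on the chow arrays and 156532 and 150911 on the GW501516 arrays, and that of 9 T cell markers 5656 and 1761 against 217.3 and 191.2, wild type first. In whole tissue, fewer cells of a type and less RNA per cell cannot be told apart.

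Timp1, which inhibits most secreted matrix metalloproteases, was lower in both MMTV-PPARd pools. Its intensity was 1092 in wild type and 314.4 in MMTV-PPARd mice on chow, and 973.0 and 359.6 on GW501516. The genotypes did not overlap, and each diet gave the same order. The fold was 3.47 on chow and 2.71 on GW501516, whereas the diets differed by 1.12-fold in wild type and 1.14-fold in MMTV-PPARd mice. Timp1 was read by 1 probe set, so no other probe set could be set beside it. Of all measured genes, 27.6% were lower with the transgene on both diets, and 2353 of 7835 were higher on both. The share that also separated the genotypes without overlap was not counted, here or for the genes below.

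Timp4, an inhibitor that is abundant in fat and heart, had the same order with smaller differences. It read 1187 and 676.4 in wild type and MMTV-PPARd mice on chow and 1085 and 694.8 on GW501516, or 1.76-fold and 1.56-fold lower with the transgene. Its second probe set read 445.1 and 267.8 on chow and 461.3 and 342.2 on GW501516, 1.66-fold and 1.35-fold lower. Both probe sets thus put both wild-type arrays above both MMTV-PPARd arrays. White adipocyte markers had median log2 differences of -0.68 on chow and -0.24 on GW501516 between the same arrays, and their part in the Timp4 values was not tested.

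The probe sets of Timp2 and Timp3 disagreed on this order. Timp2, which both inhibits MMP-2 and helps MMP-14 to activate it, read 4111 and 3689 in wild type and MMTV-PPARd mice on chow and 4810 and 5594 on GW501516. The transgene difference on GW501516 was 1.16-fold higher on this probe set, while the other 3 measured Timp2 probe sets were 1.06-fold to 1.27-fold lower, so no direction is given. Of the 4 measured Timp2 probe sets, 2 put both MMTV-PPARd arrays below both wild-type arrays, as for Timp1 and Timp4, and on the other 2 the genotypes overlapped. Timp3, which binds to the matrix and also inhibits ADAM17 and several ADAMTS enzymes, read 1616 and 1687 on chow and 2275 and 1699 on GW501516, so the genotypes overlapped. The other 2 measured Timp3 probe sets did not overlap: one was 1.14-fold and 1.34-fold lower with the transgene on chow and GW501516, the other 1.36-fold and 1.38-fold lower. Its wild-type GW501516 array was the highest on all 3 measured probe sets, by 1.41-fold, 1.21-fold and 1.03-fold over wild type on chow.

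**Figure D1:**
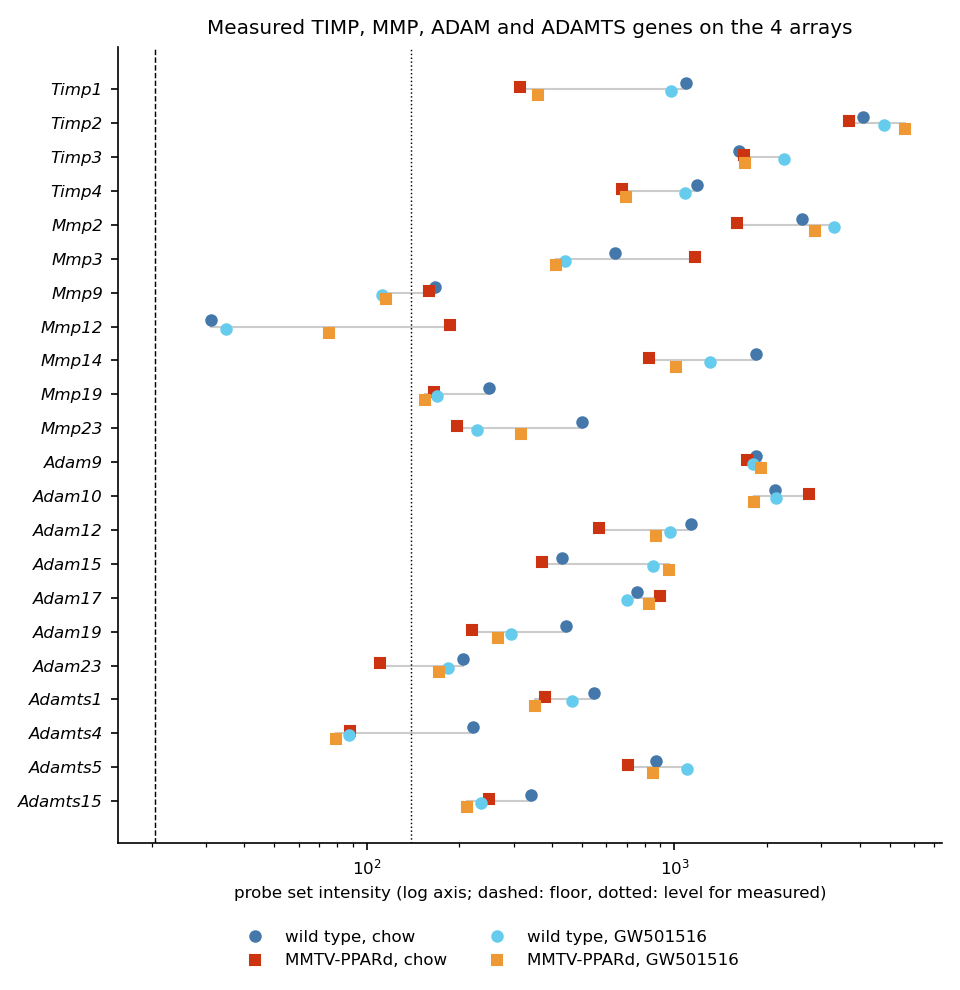
Intensity of the 22 measured genes on the 4 arrays (log axis), with circles for wild type and squares for MMTV-PPARd, darker colours for chow and lighter ones for GW501516; each point is 1 array of 1 pool. Timp1 separates by genotype (314.4 and 359.6 against 973.0 and 1092), while Adam9 stays within 1.11-fold on all arrays.

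Mmp12, the elastase of macrophages, was the matrix metalloprotease that was higher with the transgene on both diets. It read 31.2 in wild type and 186.0 in MMTV-PPARd mice on chow, and 35.0 and 75.3 on GW501516. Both MMTV-PPARd arrays were above both wild-type arrays, by 5.96-fold on chow and 2.15-fold on GW501516. With GW501516 the reading was 2.47-fold lower among MMTV-PPARd pools and 1.12-fold higher among wild-type pools. Mmp12 reached the level for measured genes only on the MMTV-PPARd chow array, was read by 1 probe set, and with a floor at the 40th percentile its transgene difference was 1.39 on chow and 0.083 on GW501516 on the log2 scale, in place of 2.58 and 1.11. The 12 macrophage markers had medians of -0.70 on chow and -0.17 on GW501516 in the same comparisons, with Csf1r, the receptor for macrophage growth factor, at 5488 and 3995 on chow and 5627 and 4774 on GW501516. On chow 2 of the 12 markers were at least 2-fold higher, as Mmp12 was, against 5.46% of measured genes. Another 3 were at least 2-fold lower, against 3.7%.

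Mmp3, stromelysin-1, which cuts many matrix proteins and activates other pro-MMPs, was highest on the MMTV-PPARd chow array. It read 641.1 in wild type and 1170 in MMTV-PPARd mice on chow and 439.2 and 412.9 on GW501516. Both GW501516 arrays were thus below both chow arrays, by 1.46-fold in wild type and 2.83-fold in MMTV-PPARd mice. Of all measured genes, 32.4% were lower with GW501516 in both genotypes, and 1895 of 7835 were higher in both. The share that also separated the diets without overlap was not counted, here or for the genes below. The transgene difference was 1.82-fold higher on chow and 1.06-fold lower on GW501516.

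Mmp3 and Mmp12 lie in a run of 10 neighbouring Mmp genes on mouse chromosome 9, in the order Mmp13, Mmp12, Mmp1b, Mmp3, Mmp1a, Mmp10, Mmp8, Mmp27, Mmp20 and Mmp7 (RefSeq, GRCm38.p6). Of the 9 genes of the run with a probe set, Mmp3 and Mmp12 were measured, and the other 7 were below the floor of 20.5, the 25th percentile of all values, on every array. The promoter windows of the run are shown because both measured genes of the run and 5 of the 7 below the floor carry the same motif. The letters TGACTCA and their reverse complement TGAGTCA, the site of AP-1 (the Fos and Jun transcription factors), were searched on both strands in the 250 bases before each annotated start. They were found for 7 of the 10 genes of the run, for 1 of the other 21 members with a promoter window, Adam19, and for 5.16% of 27025 genes. Neighbouring genes of 1 family are not independent, and the Mmp1a and Mmp1b stretches share most of their letters. Each stretch below runs 5′ to 3′ on the gene's strand with the AP-1 letters in capitals.
Mmp13: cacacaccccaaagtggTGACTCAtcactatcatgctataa
Mmp12: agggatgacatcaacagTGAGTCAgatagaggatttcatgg
Mmp1b: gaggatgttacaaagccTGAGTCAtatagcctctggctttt
Mmp3: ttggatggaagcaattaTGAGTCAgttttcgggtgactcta
Mmp1a: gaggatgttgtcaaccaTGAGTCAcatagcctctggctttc
Mmp10: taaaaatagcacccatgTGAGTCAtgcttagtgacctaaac
Mmp7: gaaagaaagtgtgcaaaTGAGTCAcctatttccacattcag

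The motif began 46 bases before the start of Mmp3 (chr9:7445759-7445799, plus strand) and 44 bases before a start of Mmp12 (chr9:7347313-7347353, plus strand). In genes below the floor it began 35 bases before the start of Mmp13 (chr9:7272462-7272502, plus), 93 before Mmp1b (chr9:7388096-7388136, minus), 73 before Mmp1a (chr9:7464051-7464091, plus) and 63 before Mmp10 (chr9:7502262-7502302, plus) and Mmp7 (chr9:7692010-7692050, plus). The motif was therefore present in front of genes with and without a signal on these arrays. A perfect direct repeat of AGGTCA with 1 base between the copies, the form bound by PPAR and RXR, was searched in the same way and occurred before none of 30 member genes with a window and before 0.0407% of all genes.

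Mmp14 and Mmp2 were lowest on the MMTV-PPARd chow array on the probe sets used. Mmp14, a membrane-bound protease that cuts fibrillar collagen and activates pro-MMP-2, read 1837 in wild type and 829.6 in MMTV-PPARd mice on chow and 1304 and 1010 on GW501516. This is 2.21-fold and 1.29-fold lower with the transgene, and its weaker probe set was 1.85-fold and 1.48-fold lower. That probe set was lowest on the MMTV-PPARd GW501516 array, at 76.4 against 82.5 on the MMTV-PPARd chow array. Mmp2, gelatinase A, made largely by fibroblasts, read 2606 and 1601 on chow and 3292 and 2863 on GW501516, 1.63-fold and 1.15-fold lower with the transgene. The second Mmp2 probe set gave 1.71-fold and 1.07-fold. Fibroblast markers were lower on the MMTV-PPARd chow array too, with a median log2 difference of -0.51. Of these, 12 of 12 were below 0, against 48.0% of measured genes, and their part in the Mmp14 and Mmp2 values was not tested.

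Mmp23, a membrane-bound protease without the usual haemopexin domain, was highest in wild type on chow. It read 501.3 in wild type and 195.8 in MMTV-PPARd mice on chow and 228.1 and 316.7 on GW501516. It was 2.56-fold lower with the transgene on chow and 2.20-fold lower with GW501516 in wild type, but 1.62-fold higher with GW501516 in MMTV-PPARd mice. The second probe set read 434.2, 150.5, 257.9 and 207.5 on the same arrays, which gives 2.89-fold lower, 1.68-fold lower and 1.38-fold higher. On GW501516 the probe sets disagreed on the genotype, at 1.39-fold higher and 1.24-fold lower.

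Mmp19 and Mmp9 stayed within 2-fold on the probe sets used. Mmp19, which cuts basement membrane proteins, read 249.9 in wild type on chow and 154.4 to 169.4 on the other arrays. Its second probe set, below the level for measured genes, was 2.13-fold lower with the transgene on chow, where the probe set used gave 1.51-fold. Mmp9, the gelatinase of neutrophils and macrophages, read 166.6 and 159.3 in wild type and MMTV-PPARd mice on chow and 112.0 and 115.4 on GW501516. Both chow arrays were above both GW501516 arrays, by 1.49-fold and 1.38-fold. The second Mmp9 probe set gave 1.04-fold and 1.31-fold in the same direction, and was 1.41-fold and 1.12-fold higher with the transgene on chow and GW501516. The 7 neutrophil markers on the array had a summed intensity of 578.3 and 466.5 on chow and 224.4 and 589.3 on GW501516, with 2 of 7 measured.

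Adam9, Adam17 and Adam10, which release many proteins from the cell surface, stayed within 2-fold between arrays on their measured probe sets. Adam9 read 1846, 1721, 1798 and 1909 in wild type on chow, MMTV-PPARd on chow, wild type on GW501516 and MMTV-PPARd on GW501516, a spread of 1.11-fold. Adam17, the enzyme that releases TNF and most EGF receptor ligands, read 755.0, 896.1, 701.0 and 828.1 in the same order. It was 1.19-fold and 1.18-fold higher with the transgene on chow and GW501516, and its second measured probe set gave 1.15-fold and 1.18-fold. That probe set was 1.44-fold and 1.41-fold lower with GW501516 in wild type and MMTV-PPARd mice, where the probe set used gave 1.08-fold lower in both. Adam10, the main sheddase of Notch and E-cadherin, was highest in MMTV-PPARd mice on chow at 2740 and read 2119, 2134 and 1818 on the other arrays. Its second measured probe set was also highest there, at 266.6 against 168.8 to 202.1.

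Adam12 and Adam19, both linked to mesenchymal cells, were lower on the MMTV-PPARd chow array than on the other 3 on the probe sets used. Adam12 read 1131 in wild type and 567.8 in MMTV-PPARd mice on chow and 968.2 and 868.5 on GW501516, 1.99-fold lower with the transgene on chow and 1.11-fold lower on GW501516. A second Adam12 probe set read 192.1 and 53.2 on chow, a 3.61-fold difference, and 168.2 and 145.8 on GW501516. Adam19 read 444.2 and 219.0 on chow and 294.2 and 267.1 on GW501516, 2.03-fold and 1.10-fold lower. Its second probe set, below the level for measured genes, was lowest on the MMTV-PPARd GW501516 array. It read 69.4 and 48.8 on chow and 53.9 and 34.0 on GW501516. Adam23, an ADAM without a protease active site that is known from the brain, read 204.9 and 110.5 on chow and 184.3 and 172.1 on GW501516. Its order was that of the Adam12 and Adam19 probe sets used.

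Adam15, an adhesion-binding ADAM of epithelium and vessels, was higher with GW501516 in both genotypes. Its intensity was 432.6 in wild type and 370.5 in MMTV-PPARd mice on chow and 850.4 and 956.8 on GW501516, 1.97-fold and 2.58-fold higher with the agonist. This probe set is of a kind whose probes can also match other transcripts. The other Adam15 probe sets stayed below the level for measured genes: 1 read 54.1 and 71.3 on chow and 88.7 and 99.9 on GW501516, another 96.7 and 86.2 against 124.7 and 93.4. Without the probe set that can be shared, the difference in MMTV-PPARd mice was 0.12 on the log2 scale.

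**Figure D2:**
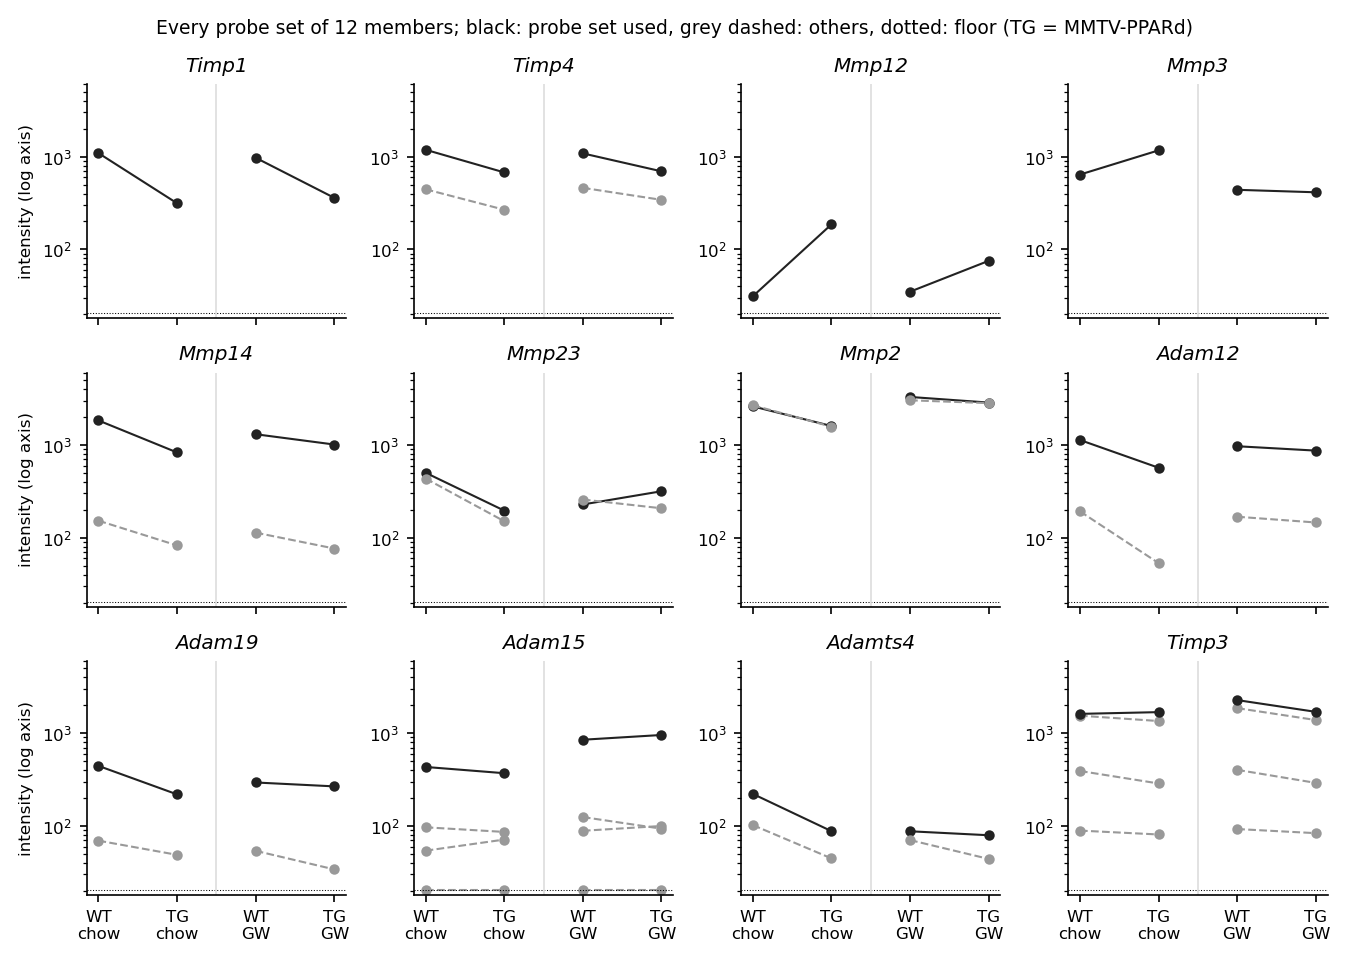
Every probe set of 12 members on the 4 arrays (log axis), with values under the floor of 20.5 drawn at the floor; black lines join the genotypes on each diet for the probe set used, grey dashed lines for the others, and the dotted line is the floor. The Timp4 and Mmp2 probe sets run nearly in parallel, the Adam12 probe sets share their direction with different sizes (-0.99 and -1.85 on the log2 scale on chow), and the Mmp23 and Adam15 probe sets differ in size or direction on GW501516.

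All 4 measured ADAMTS genes, which cut proteoglycans of cartilage and soft matrix, were lower with the transgene on both diets. Of all measured genes, 27.6% were lower on both. Adamts1 read 549.3 in wild type and 378.3 in MMTV-PPARd mice on chow and 462.9 and 352.8 on GW501516, 1.45-fold and 1.31-fold lower. Adamts5, the aggrecanase 2, read 873.4 and 704.0 on chow and 1100 and 849.1 on GW501516, 1.24-fold and 1.30-fold lower, and its second probe set gave 1.47-fold and 1.58-fold. Adamts15 read 342.0 and 250.2 on chow and 234.4 and 212.0 on GW501516. For Adamts1 and Adamts5 both MMTV-PPARd arrays lay below both wild-type arrays, though 849.1 for Adamts5 is close to 873.4, and for Adamts15 the genotypes overlapped.

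Adamts4, aggrecanase 1, was set apart by 1 array. It read 221.7 in wild type on chow and 79.4 to 87.9 on the other 3, so it was 2.52-fold lower with the transgene on chow and 2.53-fold lower with GW501516 in wild type. On GW501516 the genotypes differed by 1.10-fold. Wild type on chow was the only array on which it reached the level for measured genes, and its second probe set, below that level throughout, read 102.2 there and 70.4 in wild type on GW501516 against 44.7 and 44.1 in MMTV-PPARd mice.

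The other 32 members did not reach the level for measured genes. Of these, 20 were at or below the floor on every array, as were 1951 of the 12393 named genes. All 4 collagenase genes of the list (Mmp1a, Mmp1b, Mmp8 and Mmp13) belonged to them, with 20.3 as the highest intensity. Of the 13 ADAM genes on the array that are known from the male reproductive tract, none was measured, and the highest reading was 48.7, for Adam4 in wild type on GW501516. Another 12 members lay between the floor and the level on at least 1 array. Among them were Adam8, an ADAM of leukocytes (130.3, 96.2, 70.9 and 115.9 in wild type on chow, MMTV-PPARd on chow, wild type on GW501516 and MMTV-PPARd on GW501516), Adamts10 (106.3, 68.6, 96.8 and 58.4), Mmp11, stromelysin-3 (74.7, 89.2, 117.4 and 99.5), Mmp17 (68.8, 40.3, 51.4 and 65.1) and Adamts7 (56.7, 31.2, 56.0 and 11.7, the last below the floor). Adamts10 was lower with the transgene on both diets, like the measured ADAMTS genes, at values where the array gives little precision.

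The comparison of genotypes on chow showed the most members past 2-fold. It uses the MMTV-PPARd chow array, which stood apart in its Gapdh and BioB controls. The part of that array in the values was not tested. Of 22 measured members, 5 were at least 2-fold lower in MMTV-PPARd mice (Timp1, Mmp14, Mmp23, Adam19 and Adamts4), against 3.7% of 7835 measured genes, and 1 was at least 2-fold higher (Mmp12), against 5.46%. Mmp12 counts as measured only through the MMTV-PPARd chow array and Adamts4 only through wild type on chow, each its highest array. Their places in the counts here and below depend on those arrays. The median log2 difference of the members was -0.49, with 17 of 22 below 0, beside 0.020 and 48.0% below 0 over all measured genes. The MMTV-PPARd chow array was the lowest of the 4 for 12 of 22 members, as for 2155 of 7835 genes, and wild type on chow the highest for 12, as for 1991 genes. Matrix genes on which these enzymes act were lower between the same arrays: 26 of 27 were below 0 and 9 at least 2-fold lower, with a median of -0.72, and Col1a1, the main fibrillar collagen, read 2782 and 1065. Collagen genes, some of which are also in the matrix list, had a median of -0.66. Luminal epithelial markers had a median of 1.47 in the opposite direction, and the part of the tissue's makeup in the members' values was not tested.

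On GW501516, 1 of 22 members was at least 2-fold lower in MMTV-PPARd mice (Timp1), against 1.19% of measured genes, and 1 at least 2-fold higher (Mmp12), against 2.82%. The median was -0.14, with 15 of 22 below 0, beside 0.0016 and 49.4% below 0 over all measured genes. The 12 fibroblast markers had a median of -0.12 here, with 0 at least 2-fold lower, and their part in the Timp1 value was not tested. The genotype comparisons on the 2 diets share no array: 12 of 22 members were below 0 on both, 54.5%, beside 27.6% of all measured genes. Timp1 was 1 of 17 genes at least 2-fold lower on both diets and Mmp12 1 of 123 at least 2-fold higher on both. Mmp12 counts as measured, also for the correlations that follow, only through the MMTV-PPARd chow array. Across the 22 members, genes that share the arrays and are not independent, Pearson's r between the transgene differences on the diets was 0.64 and Spearman's rho 0.34, beside 0.37 and 0.25 over all measured genes.

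**Figure D3:**
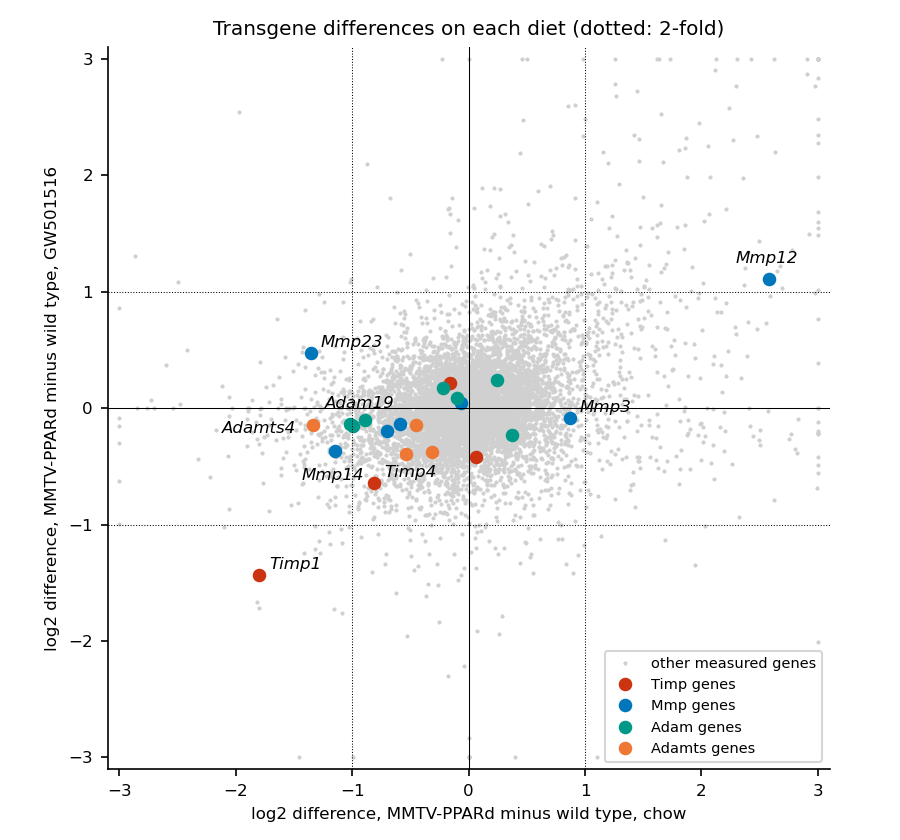
Log2 difference between MMTV-PPARd and wild type on chow (horizontal) and on GW501516 (vertical) for measured members, coloured by family, and all other measured genes in grey, with grey points beyond 3 drawn at 3; dotted lines mark 2-fold. Timp1 lies at -1.80 and -1.44 and Mmp12 at 2.58 and 1.11, and Mmp14, Mmp23 and Adamts4 lie past 2-fold on chow and within it on GW501516.

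GW501516 in wild-type mice left most members within 2-fold. None of 22 was at least 2-fold higher, against 3.18% of measured genes, and 2 were at least 2-fold lower (Adamts4 and Mmp23), against 3.25%. With no test possible, these are counts of pools. The median was -0.16 with 15 of 22 below 0, beside -0.037 and 54.9% below 0 over all measured genes. The Timp genes went both ways, with 2 above and 2 below 0. Adam15, at 1.97-fold, was just under 2-fold.

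GW501516 in MMTV-PPARd mice was read against the MMTV-PPARd chow array, which stood apart. At least 2-fold higher was 1 member (Adam15), against 3.98%, and 2 were at least 2-fold lower (Mmp3 and Mmp12), against 4.07%. The median was 0.095 with 13 of 22 above 0, beside -0.034 and 46.8% above 0 over all measured genes. Of the matrix genes, 26 of 27 were above 0, with a median of 0.48. Mmp2 was 1.79-fold higher on both of its probe sets, at 1601 and 2863 on the probe set used. This comparison shares its chow array with that of the genotypes on chow, with opposite sign.

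**Figure D4:**
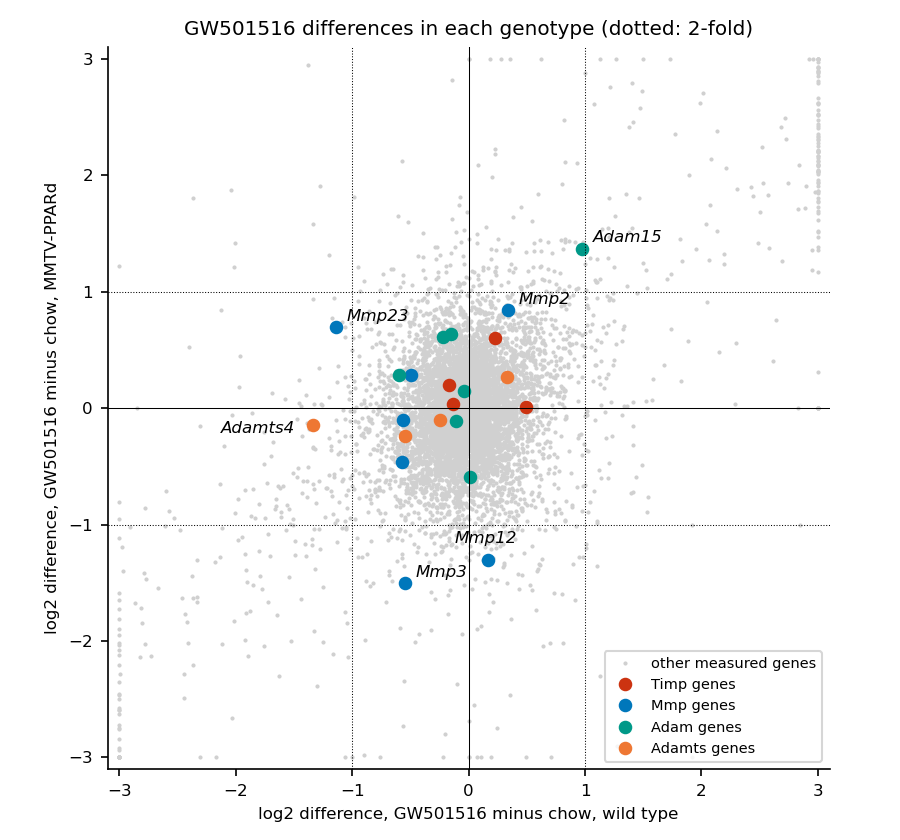
Log2 difference between GW501516 and chow in wild type (horizontal) and MMTV-PPARd mice (vertical) for measured members, coloured by family, and all other measured genes in grey, with grey points beyond 3 drawn at 3; dotted lines mark 2-fold. Adam15 lies at 0.98 and 1.37, while Mmp23 lies at -1.14 and 0.69 and Mmp12 at 0.17 and -1.30.

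The GW501516 differences of the 2 genotypes were at least 2-fold apart for 3 members. Those of Mmp23 (a difference of 1.83 on the log2 scale) and Adamts4 (1.19) were higher in MMTV-PPARd mice, 2 of 22 against 4.42% of measured genes, and that of Mmp12 (-1.47) was lower, 1 of 22 against 5.25%. The median was 0.33, beside 0.0054 over all measured genes and 0.64 for the matrix genes. For 11 measured members with another measured probe set, probe sets of 1 gene disagreed with an SD between 0.29 and 0.37 (log2) across the 4 direct comparisons of arrays, and 0.41 here. Over all 2534 measured genes with another measured probe set the SDs were larger, 0.35 to 0.45 and 0.54. These SDs hold no scatter between arrays.

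Other genes of the same pathways were read from lists. Among 16 measured inhibitors and partners of metalloproteases, 2 were at least 2-fold lower with the transgene on chow (3.7% of measured genes) and 1 higher (5.46%), and on GW501516 0 were lower (1.19%) and 1 higher (2.82%). Thbs2, a thrombospondin that takes MMP-2 up for degradation, read 1591 and 552.3 in wild type and MMTV-PPARd mice on chow and 1433 and 802.9 on GW501516, 2.88-fold and 1.79-fold lower. Its order is that of Timp1, with both MMTV-PPARd arrays below both wild-type arrays. Pcolce, which speeds procollagen processing, was 2.18-fold lower on chow only. Thbs1 was 2.47-fold higher on chow. Pcsk6, a proprotein convertase, was 2.37-fold higher with GW501516 in wild type and Tspan33, a tetraspanin partner of ADAM10, 2.03-fold higher with the transgene on GW501516. Tspan33 read 76.0 in wild type on GW501516, under the level for measured genes, and 136.3 to 154.0 on the other arrays. Its probe set, like that of Adam15, is of a kind whose probes can also match other transcripts.

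In the plasminogen system 2 of 6 genes on the array were measured. Plau, urokinase, read 367.6 and 111.8 on chow and 230.3 and 208.8 on GW501516, 3.29-fold lower with the transgene on chow. Of 12 measured cathepsins, 2 were at least 2-fold lower with GW501516 in each genotype, Ctsw and Ctse in wild type (3.25% of measured genes) and Ctse and Ctss in MMTV-PPARd mice (4.07%). Ctsw, the cathepsin of cytotoxic lymphocytes, read 270.2 and 45.5 in wild type, between arrays on which all 8 measured T cell markers were at least 2-fold lower. Among 14 measured genes of proteins shed by ADAM10 or ADAM17, 2 were at least 2-fold higher with the transgene on chow (5.46% of measured genes). These were Cdh1, E-cadherin, at 4.03-fold and Cx3cl1 at 2.29-fold, while 1, Il6ra, was 2.20-fold lower (3.7%). Cdh1 is also in the luminal epithelial list. Egf read 17.7 and 32.0 on the chow arrays and 164.2 and 169.2 on the GW501516 arrays, at least 8.01-fold higher in wild type and 5.29-fold in MMTV-PPARd mice.

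**Figure D5:**
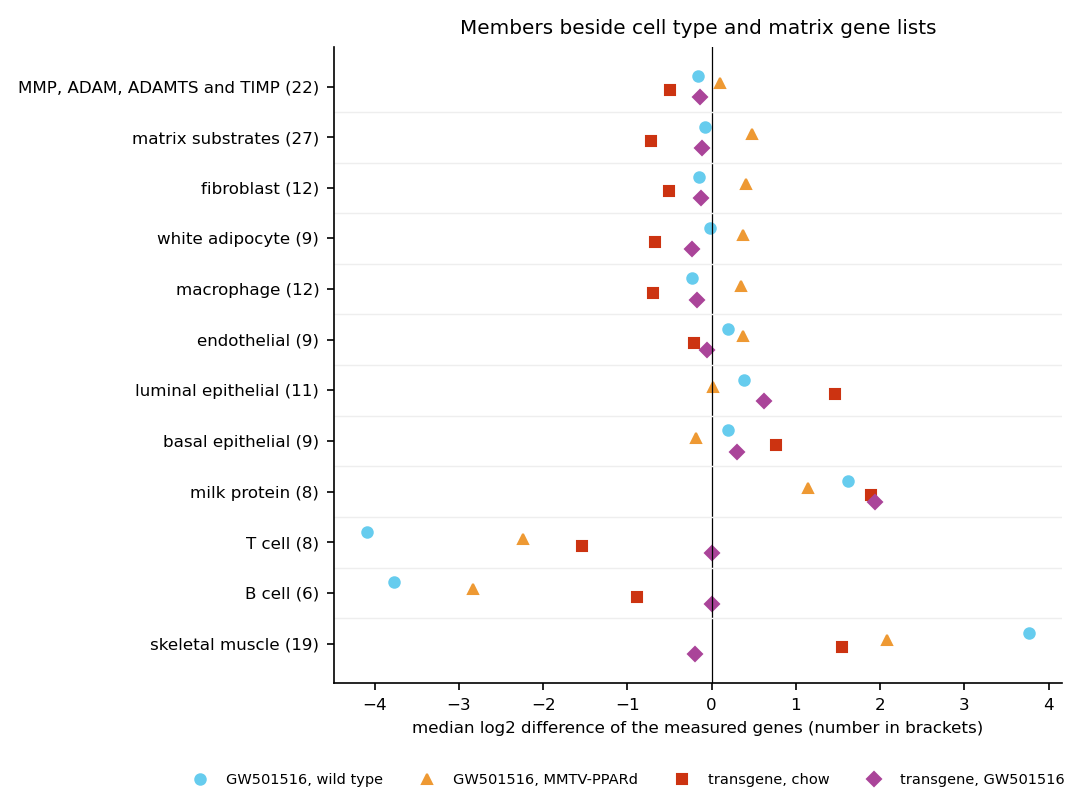
Median log2 difference of the 22 measured members and of 11 gene lists in the 4 comparisons between arrays; the number of measured genes is in brackets and each symbol is 1 comparison. The members' median of -0.49 for the transgene on chow lies between those of matrix (-0.72) and fibroblast genes (-0.51) and 0, while T cell and skeletal muscle medians reach -4.09 and 3.77 with GW501516 in wild type. The matrix and fibroblast lists share genes, Col1a1 among them.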

How the data were processed

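Mammary gland RNA pooled from 5 mice per group was hybridised to 1 Affymetrix array per group, from biotin-labelled cRNA, per the labels' protocols. The deposited values are probe set intensities on a linear scale, and no source used here gave the software or the summarisation. The authors' values had been scaled: their mean without the lowest and highest 2% was 500.17 to 500.2 on all arrays. Of 22690 probe sets, 691 named several genes, 1606 were not listed, and control probe sets named no gene. For each gene the probe set with the highest mean was used. Values under 20.5 were set to that floor before log2. A gene was measured where 1 array reached 139. A fold with 1 side at the floor is written as "at least". With 1 array per group no test was run, and the number of arrays limits the precision. All 22 measured members were named. These include all TIMPs, members past 2-fold in a comparison, the 10 brightest and those with several measured probe sets. Some members below the level for measured genes were named too. Members and lists were chosen with earlier results of these data known. The computation was tested on simulated data. Promoters are RefSeq's (GRCm38.p6). Python 3.11.15, pandas 2.3.3 and numpy 2.4.6 were used.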

Additional observations from a re-analysis of the deposited data

Results flagged for a closer look

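The effect of GW501516 on Mmp12 pointed in opposite directions in the genotypes, at 0.17 on the log2 scale in wild type and -1.30 in MMTV-PPARd mice. The wild-type values of Mmp12, 31.2 on chow and 35 on GW501516, were under the level of 139 for measured genes. Both also lay under a floor at the 40th percentile, 71.1, and with that floor no wild-type difference was left. The effect of GW501516 on Mmp23 also pointed in opposite directions, at -1.14 in wild type and 0.69 in MMTV-PPARd mice. The effect of the transgene on Mmp23 was -1.36 on chow and 0.47 on GW501516, and the second Mmp23 probe set was -1.53 and -0.31, so that it did not turn direction. Each effect rests on 1 array per group, and the differences were not tested.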

How the results depend on the processing

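Of 16 named differences past 2-fold, none changed direction under the 8 alternatives tried, which changed the scaling, the floor, the filter or the choice of probe sets. Timp1 ranged from -1.87 to -1.80 (log2) for the transgene on chow and from -1.46 to -1.42 on GW501516. With a floor at the 40th percentile, 0 members were at least 2-fold higher with the transgene on GW501516. Without a filter, 2 were at least 2-fold lower there, 4 had a GW501516 effect at least 2-fold higher in MMTV-PPARd mice, and the median for the transgene on chow was 0, since most added members lie at the floor. When measured meant the 75th percentile, which left 13 members, the transgene on chow had 0 higher and 2 lower, the transgene on GW501516 0 higher, GW501516 0 lower in wild type and 1 lower in MMTV-PPARd mice, and the difference of effects 0 in either direction. With the mean over probe sets, GW501516 in wild type had 0 lower: Adamts4 and Mmp23 both came to -0.94. Under the same setting Adam19 came to -0.76 for the transgene on chow, and Adam15 to 0.51 and 0.49 for GW501516 in wild type and MMTV-PPARd mice. Without shared probe sets, GW501516 in MMTV-PPARd mice had 0 higher. The members' medians were 0 without a filter in all 5 comparisons and otherwise kept their sign. No paired analysis was possible because each group is 1 array. Signals near the floor limit Mmp12 and the 32 members not measured.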
